A study of Homo sapiens with 32 samples.

Results

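CAGE tags, which mark the capped 5′ ends of RNAs, were examined at the start sites of 10 genes that cells use to go through mitosis: CDC20, CCNB1, PLK1, AURKA, TOP2A, MKI67, BIRC5, UBE2C, CCNA2 and CCNB2. A start site was counted to a gene when its hg19 position and strand lay in a window around that gene. The windows held 14 of the 19534 start-site clusters of an R1881 time course and 11 of the 13294 single-base start positions of a second experiment with 2 cell lines. Each of the 10 genes had at least 1 site in both tables. The tables give no gene names. The windows lay on the same chromosome as the RefSeq gene for 10 of 10 genes and were longer than the gene in each case.

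The series holds 32 libraries, all of human prostate cancer cell lines that had been kept for 3 days in medium with hormone-depleted (charcoal/dextran-treated) serum. In the time course LNCaP cells, an established androgen-responsive line, were treated with R1881, a synthetic androgen, for 3, 6, 12, 18, 48 or 72 h or sampled at 0 h, with 2 libraries at each of the 7 times. The sample characteristics give the R1881 dose as 1 nM and the shared treatment protocol as 10 nM, and no library of vehicle-treated cells after 0 h was part of this time course, so R1881 and time in culture cannot be told apart. In the second experiment BicR cells, another prostate cancer line (its name is not spelled out), and LNCaP cells received 10 nM dihydrotestosterone (DHT, a natural androgen), DHT with 1 µM bicalutamide (an androgen receptor antagonist), 1 µM bicalutamide alone, or ethanol, the vehicle, for 6 or 24 h. Each line also gave 1 untreated library at 0 h, and every condition of the second experiment is 1 library. The series addresses which start sites androgen regulates in these lines. The labels do not say whether replicates came from separate cultures, so the p-values of the time course measure the spread between these libraries, which may be technical. The second experiment has no replicates, so its p-values rest on spread between unlike conditions. That spread can hold treatment effects, such as one that differs between 6 h and 24 h. The line identity could not be checked against marker genes, because names for other sites of this build were not used here.

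Cyclin-dependent kinase 1 drives the entry into mitosis when it is bound to cyclin A2 (CCNA2) and then to the B-type cyclins CCNB1 and CCNB2. The kinases PLK1 and AURKA act on centrosomes and the spindle, TOP2A untangles the replicated chromosomes, and BIRC5 (survivin) belongs to the chromosomal passenger complex that corrects attachments to the spindle. CDC20 and UBE2C serve the anaphase-promoting complex, which ends mitosis by marking cyclins for destruction, and MKI67 coats mitotic chromosomes and is the antigen of the Ki-67 stain for proliferating cells. These genes are transcribed mainly in the G2 and M phases and are kept low in resting cells, through promoter elements called the cell cycle genes homology region (CHR) and the CCAAT box, the binding site of NF-Y. In a dish of cells their summed RNA thus follows the share of dividing cells as well as the RNA of each such cell, and these cannot be told apart in bulk libraries.

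Promoters are shown as background, and no link between their motifs and the levels of the genes was tested. RefSeq (GRCh38.p14) gave the promoters of 7 of the 10 genes. The lines below run from position -200 to position 30 around the RefSeq start, 5′ to 3′ on the gene's strand. Capitals mark each CHR motif (TTTGAA or its reverse complement, TTCAAA) and each CCAAT box (CCAAT or its reverse complement, ATTGG). In MKI67 the second CHR motif and a reversed CCAAT box overlap and form one capital run. The start sites of the tables are in hg19 and were not placed on these sequences.
CCNA2, chr4:121823854-121824083, minus strand: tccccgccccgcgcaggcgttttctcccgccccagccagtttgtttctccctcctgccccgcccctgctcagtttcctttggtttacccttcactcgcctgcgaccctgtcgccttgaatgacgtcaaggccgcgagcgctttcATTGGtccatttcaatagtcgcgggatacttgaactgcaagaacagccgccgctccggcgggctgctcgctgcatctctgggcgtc
CCNB1, chr5:69166950-69167179, plus strand: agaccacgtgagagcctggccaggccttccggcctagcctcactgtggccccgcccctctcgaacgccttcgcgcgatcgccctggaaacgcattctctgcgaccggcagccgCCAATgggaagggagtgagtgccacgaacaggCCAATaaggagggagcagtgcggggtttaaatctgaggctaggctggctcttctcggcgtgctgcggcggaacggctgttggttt
CCNB2, chr15:59104946-59105175, plus strand: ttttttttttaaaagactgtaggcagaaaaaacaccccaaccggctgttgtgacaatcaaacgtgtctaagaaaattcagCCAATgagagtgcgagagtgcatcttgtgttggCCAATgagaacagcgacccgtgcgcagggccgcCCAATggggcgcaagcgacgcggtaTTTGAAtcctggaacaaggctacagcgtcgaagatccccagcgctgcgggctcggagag
CDC20, chr1:43358781-43359010, plus strand: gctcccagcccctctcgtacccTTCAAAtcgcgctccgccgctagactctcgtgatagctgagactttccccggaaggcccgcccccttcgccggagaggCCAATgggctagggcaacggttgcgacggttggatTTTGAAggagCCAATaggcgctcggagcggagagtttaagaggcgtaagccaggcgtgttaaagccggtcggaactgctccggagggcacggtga
PLK1, chr16:23678689-23678918, plus strand: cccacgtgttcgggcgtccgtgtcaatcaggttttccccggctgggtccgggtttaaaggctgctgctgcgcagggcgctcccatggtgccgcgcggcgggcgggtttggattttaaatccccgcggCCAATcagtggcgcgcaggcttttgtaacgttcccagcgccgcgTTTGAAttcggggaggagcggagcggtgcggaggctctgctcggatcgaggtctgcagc
TOP2A, chr17:40417867-40418096, minus strand: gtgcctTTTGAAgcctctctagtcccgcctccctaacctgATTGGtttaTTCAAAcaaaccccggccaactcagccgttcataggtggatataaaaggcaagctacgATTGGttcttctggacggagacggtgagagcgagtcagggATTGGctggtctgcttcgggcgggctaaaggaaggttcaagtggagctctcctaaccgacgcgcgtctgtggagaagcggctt
MKI67, chr10:128126394-128126623, minus strand: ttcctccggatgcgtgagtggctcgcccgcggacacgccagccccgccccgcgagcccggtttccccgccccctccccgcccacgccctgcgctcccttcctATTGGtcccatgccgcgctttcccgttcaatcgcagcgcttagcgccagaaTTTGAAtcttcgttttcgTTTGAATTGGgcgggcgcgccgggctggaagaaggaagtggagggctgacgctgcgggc

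The CCAAT box was in all 7 of these promoters, searched over 250 bases before and 50 bases after the start on both strands, and in 34.6% of the 35116 RefSeq promoters of that length. A CHR motif TTTGAA was in 5 of the 7 (CDC20, PLK1, TOP2A, MKI67 and CCNB2) and in 15.2% of all promoters. In PLK1, CCNB2 and MKI67 a CHR motif began at position -29, and in PLK1 a CCAAT box began at position -73. At least 2 CCAAT boxes were in 5 of the 7 (4 in TOP2A and 4 in CCNB2) and in 10.8% of all promoters. The variant TTCGAA was in 0 of the 7 and in 1.45% of all promoters. The GC-rich letters GGCGG were in all 7 and in 59.0% of all promoters, and TATAAA in 1 of the 7 (TOP2A) and in 11.5%. These are matches of letters and not measured binding. Only TTTGAA and TTCGAA were searched as CHR motifs, so CCNB1 and CCNA2, which had neither, are not shown to lack a CHR.

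**Figure D1:**
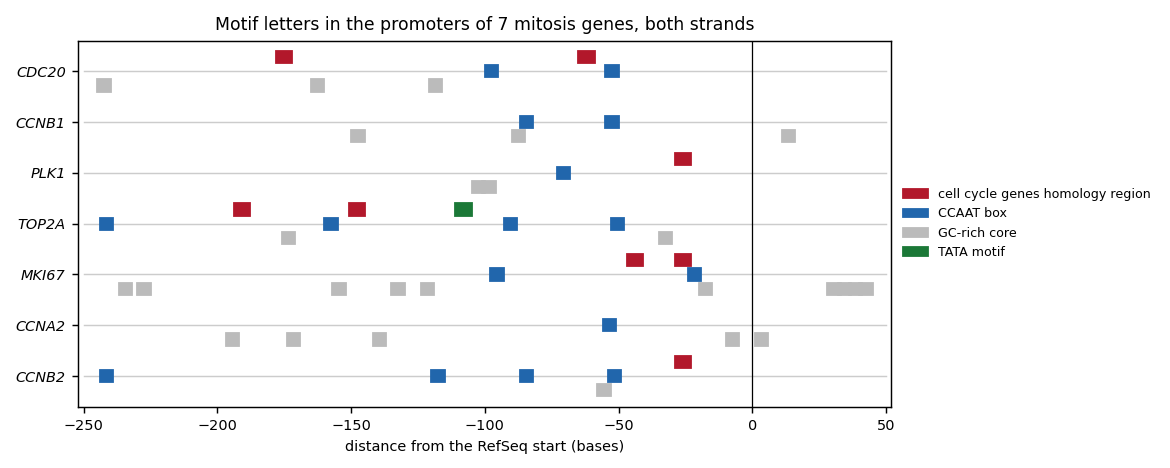
Positions of 4 motifs in the RefSeq promoters of 7 mitosis genes, with the distance from the RefSeq start in bases on the horizontal axis and 1 row per gene. Red boxes are CHR motifs, blue boxes are CCAAT boxes, grey boxes are GGCGG and the green box is TATAAA, on either strand. A CHR motif begins at position -29 in PLK1, MKI67 and CCNB2.

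Most members had 1 start site in each table. For each gene the site with the highest mean RPM (the authors' tag value scaled to library size) is called its lead site below. The lead sites of CDC20, CCNA2, CCNB1, CCNB2, TOP2A and AURKA carried the same name in both tables, and those of PLK1, UBE2C, MKI67 and BIRC5 differed by 1, 2, 4 and 19 bases. In the time course the lead clusters were 127 bp (AURKA) to 302 bp (CCNB1) wide. The CCNB1 cluster lay at chr5:68462818-68463119 on the plus strand, that of TOP2A at chr17:38574046-38574234 on the minus strand and that of UBE2C at chr20:44441155-44441380 on the plus strand in hg19. Only MKI67 had further clusters in the time course, 4 of them, 17018 to 22461 bp downstream of its lead site. In the second experiment only BIRC5 had a further site, 9806 bp downstream of its lead site.

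Depth set what could be seen. Total tags in the time course ranged from 128463 to 3837493, with replicate 1 below replicate 2 at every time. In the 6 h and 18 h libraries of replicate 1 the 10 genes together had only 16 and 10 tags. An approximate upper limit of 3 tags was taken for a count of 0, which corresponds there to 17.1 and 19.4 RPM. Depth in the experiment with both lines was even, at 4139807 to 7753336 tags over 18 libraries, and 3 tags are there 0.326 to 0.601 RPM. These limits cover counting error only.

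Start-site levels of the mitosis genes were lowest late in the R1881 time course. The 10 lead sites of replicate 2 together had 878, 885, 901, 764, 829, 186 and 72.3 RPM at 0, 3, 6, 12, 18, 48 and 72 h. Those of replicate 1 had 194, 148, 91.2, 87.7, 64.8, 35.2 and 20.3 RPM at the same times. The sum of replicate 2 stayed between 764 and 901 RPM up to 18 h, and the 48 and 72 h libraries had the lowest sums of both replicates. In replicate 2 all 10 genes were lower at both late times than at any earlier time, and lowest at 72 h. In replicate 1, where single genes had few tags, both late times lay below all earlier ones for 3 of 10 genes, and 72 h was lowest, ties included, for 7. The share of all sites with these orders of times is not given here, so these counts describe the 10 genes only.

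**Figure D2:**
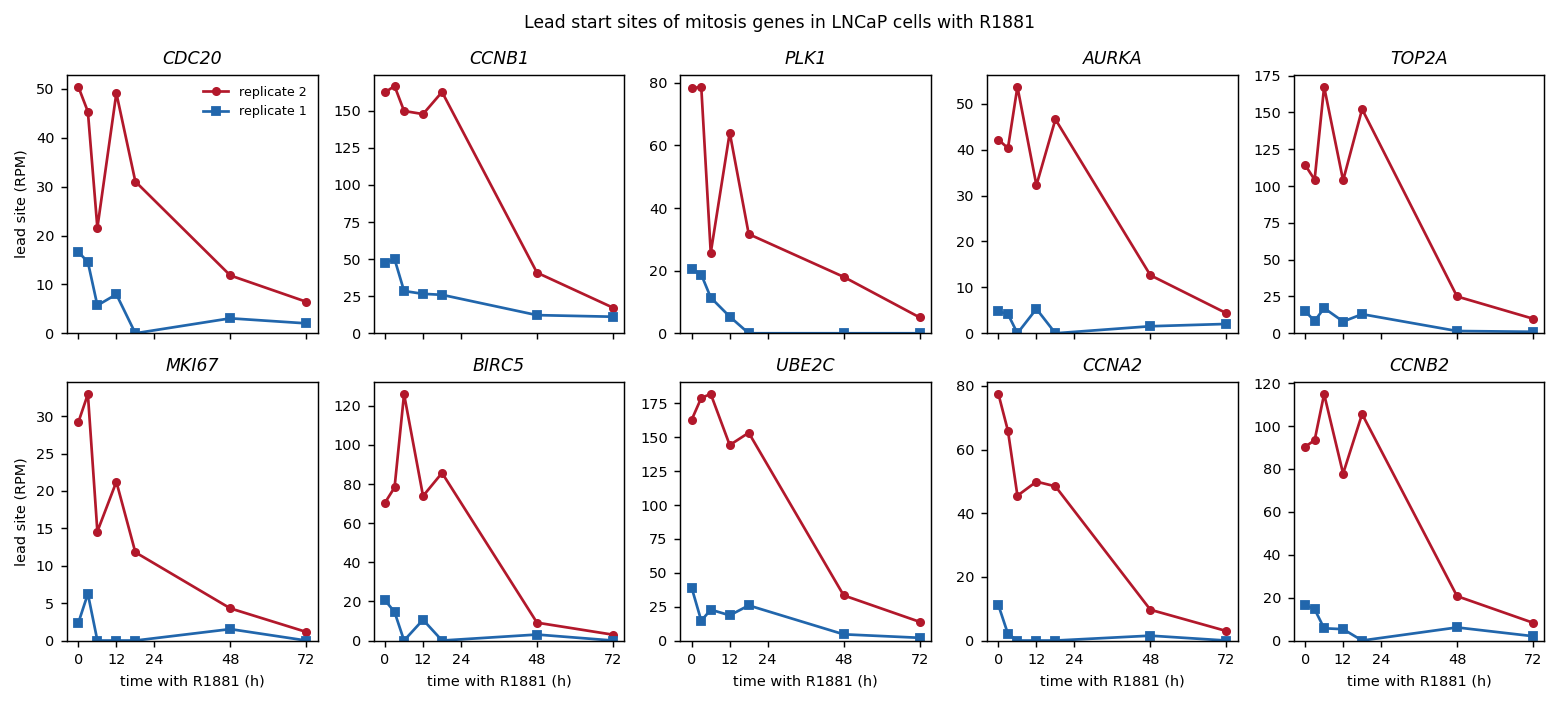
Lead start-site level (RPM) of each mitosis gene against time with R1881 (h) in LNCaP cells, with 1 line per replicate and 1 library per point. Replicate 2 (red) lies above replicate 1 (blue) at every time, and in replicate 2 every gene is lowest at 72 h.

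Among the cyclins, CCNB1 had 162, 167, 149.9, 148, 163, 40.9 and 17.3 RPM in replicate 2 at 0, 3, 6, 12, 18, 48 and 72 h, and 47.5, 50.03, 28.5, 26.6, 25.9, 12.2 and 11.2 RPM in replicate 1. Its mean was 14.2 ± 4.32 RPM at 72 h, against 105 ± 81.4 RPM at 0 h (SD, n = 2 each), and the replicates of the 2 times did not overlap. CCNB2 had 90.4, 93.4, 115, 77.8, 106, 20.7 and 8.29 RPM in replicate 2 and 16.6, 14.6, 5.70, 5.32, 0, 6.11 and 2.03 RPM in replicate 1. CCNA2, the earlier cyclin, had 77.4, 65.9, 45.5, 49.9, 48.4, 9.68 and 2.99 RPM in replicate 2, and in replicate 1 it had tags only at 0, 3 and 48 h (11.1, 2.09 and 1.53 RPM). In replicate 2 the 72 h level of CCNA2 was 25.9-fold below its 0 h level, and those of CCNB2 and CCNB1 were 10.9-fold and 9.41-fold below. These 72 h levels rested on 13, 36 and 75 tags.

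The genes that serve the anaphase-promoting complex were likewise lowest at 72 h in replicate 2. UBE2C, the ubiquitin-conjugating enzyme that supplies the complex, had 163, 179, 182, 144, 153, 33.3 and 13.8 RPM in replicate 2 and 38.8, 14.6, 22.8, 18.6, 25.9, 4.59 and 2.03 RPM in replicate 1. CDC20, its activator, had 50.4, 45.4, 21.6, 49.1, 31.1, 11.8 and 6.45 RPM in replicate 2 and 16.6, 14.6, 5.70, 7.97, 0, 3.06 and 2.03 RPM in replicate 1. The fall to 72 h in replicate 2 was 11.8-fold for UBE2C and 7.82-fold for CDC20. CDC20 was also low at 6 h of replicate 2, where UBE2C was at its highest, a contrast that rests on this library.

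The lead sites of the kinases differed in the 6 h and 18 h libraries of replicate 2. PLK1 had 78.2, 78.7, 25.7, 64.1, 31.7, 18.0 and 5.07 RPM in replicate 2 and was nearer to its 48 h level than to its 0 h level at 6 and 18 h. AURKA had 42.1, 40.3, 53.7, 32.2, 46.6, 12.6 and 4.38 RPM in replicate 2 and was at its highest at 6 h. In replicate 1 PLK1 had 26 tags at 0 h (20.6 RPM) and 0 tags at 18, 48 and 72 h, and AURKA never had more than 6 tags. At 6 h of replicate 1 PLK1 had 2 tags and AURKA 0, and AURKA also had 0 at 18 h. In the 6 h and 18 h libraries of replicate 2, 73.7% and 68.3% of MKI67 tags lay downstream of its lead site. At 0, 3 and 12 h 22.1%, 27.97% and 20.6% did. Whether the contrast of the kinases is one of the genes or of these libraries was not tested. PLK1 at 72 h of replicate 2 stood 15.4-fold below 0 h, and AURKA 9.63-fold below.

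TOP2A, the DNA topoisomerase, had 114, 104, 167, 104, 152, 25.0 and 9.90 RPM in replicate 2 and 15.03, 8.34, 17.1, 7.97, 12.96, 1.53 and 1.014 RPM in replicate 1. BIRC5 had 70.5, 78.3, 126, 73.9, 85.7, 9.14 and 2.99 RPM in replicate 2 and reached only 1.497 ± 2.12 RPM at 72 h, against 45.5 ± 35.3 RPM at 0 h (SD, n = 2 each). The lead site of MKI67 had 29.2, 33.0, 14.6, 21.2, 11.8, 4.30 and 1.15 RPM in replicate 2 and never more than 3 tags in replicate 1. The falls to 72 h in replicate 2 were 11.6-fold for TOP2A, 23.6-fold for BIRC5 and 25.4-fold for the lead site of MKI67. At 72 h these rested on 43, 13 and 5 tags. The downstream clusters of MKI67 together had 8.27 RPM at 0 h and 2.07 RPM at 72 h in replicate 2, a smaller fall. Over the 10 lead sites the fall to 72 h in replicate 2 ranged from 7.82-fold to 25.9-fold with a median of 11.7-fold. The sum over the 10 genes was 12.2-fold lower at 72 h than at 0 h in replicate 2 and 9.55-fold lower in replicate 1.

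Without regard to the replicate number, 0 of 10 lead sites passed edgeR's quasi-likelihood test at 3, 6, 12, 18, 48 or 72 h against 0 h, at a Benjamini-Hochberg adjusted p under 0.05. At 72 h 9 of the 10, and 2500 of the 15999 sites tested, had an unadjusted p under 0.05. At the other times none of the 10 had, with 269, 2449, 996, 3268 and 1967 of all sites at 3, 6, 12, 18 and 48 h. DESeq2 gave 0 of 10 at each of these times too. Of all 15999 sites tested, 0%, 0%, 0.231% and 0.988% were called in either direction at 3, 6, 12 and 18 h, and 0.494% and 0.988% were called lower at 48 and 72 h. The median log2 change of the 10 lead sites was -2.04 at 48 h and -3.28 at 72 h, where the median over all sites tested was -0.02 and 0.01. All 10 changes were negative at both times. These medians moved with single libraries. At 48 h the median was -0.64, with 3 of the 10 changes positive, without the 0 h library of replicate 2, and -3.91 without the 48 h library of replicate 2. At 72 h it was -1.62 without the 0 h library of replicate 2 and -5.81 without the 72 h library of replicate 2. For the mean of 48 and 72 h against the mean of 3 and 6 h, 1 lead site was lower, that of BIRC5, at a log2 change of -3.95 (SE 1.01, adjusted p = 0.0336), among 2.59% of all sites called lower. Its adjusted p ranged from 4.4e-10 to 0.950 over the alternatives. Without the 6 h library of replicate 2, where BIRC5 had 216 tags, its change was 1.10 (adjusted p = 0.944, edgeR), since the 6 h level then rested on a replicate 1 library with 0 tags of BIRC5. DESeq2 also gave 1 lower site here, that of CCNB1 and not that of BIRC5.

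The replicates shared their deviations across times, as all 21 pairs of times showed a positive correlation between same-numbered libraries, so the replicate number was also used as a block. With the block, 9 of 10 lead sites fell at 48 h and 10 of 10 at 72 h. The median log2 changes were -2.41 and -3.69. Among all sites 3.58% fell at 48 h and 5.89% at 72 h. The largest change at 72 h was that of CCNA2, at -4.89 (SE 0.67, adjusted p = 3.39e-05), followed by BIRC5 at -4.88 (SE 0.71, adjusted p = 6.38e-05). The smallest was that of CCNB1, at -2.75 (SE 0.47, adjusted p = 0.000348). AURKA, at -1.64 (SE 0.54, adjusted p = 0.0611), was the 1 lead site that did not pass at 48 h. At 3, 6, 12 and 18 h 0 of 10 passed with the block, and 0.288%, 6.61%, 1.98% and 13% of all sites did in either direction. The highest SE among the lead sites at these times was 0.55, 0.61, 0.56 and 8.03. The 18 h fit could thus not show a change at the site with that SE. At an unadjusted p under 0.05 the lead sites at these times numbered 0, 2, 0 and 1, among 472, 4316, 1760 and 4934 of all sites. The late against the early times gave 10 lower lead sites and 1 lower downstream site of MKI67, among 8.03% of all sites.

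Single libraries carried part of these blocked counts. Without the 72 h library of replicate 2, 3 lead sites fell at 72 h, among 1.07% of all sites, and without the 0 h library of replicate 2, 8 fell, among 1.4%. At 48 h 1 lead site fell without the 48 h library of replicate 2 (0.981% of all sites). Without the 0 h library of replicate 1 or of replicate 2, 5 fell (1.31% and 0.717% of all sites). For the late against the early times 3 fell without the 6 h library of replicate 2 (2.13%). With the 4 libraries at 6 and 18 h left out, all 10 lead sites fell at 48 h and at 72 h in the fit with the block, among 6.28% and 10.3% of all sites. These alternatives were chosen after the data were seen. By the values alone, the libraries of 72 h lay below those of 0 h without overlap for 10 of 10 lead sites, and so did 25.5% of all sites. At 48 h this held for 6 of 10 lead sites and 24.9% of all sites.

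**Figure D3:**
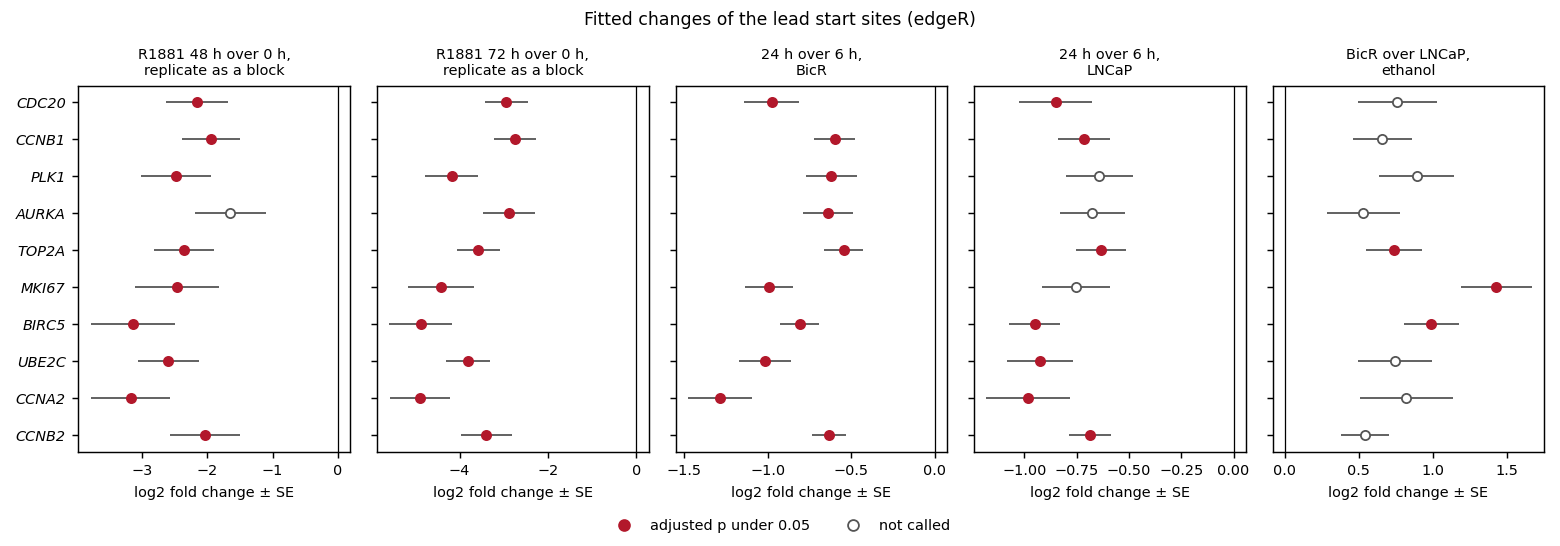
Log2 fold change (points) with its standard error (bars) of the 10 lead start sites in 5 comparisons, from edgeR. Filled points passed an adjusted p under 0.05 and open points did not. All 10 genes are below 0 in the 48 h and 72 h comparisons of R1881 and at 24 h in both lines, and all 10 are above 0 in BicR over LNCaP cells with ethanol.

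The 2 replicates of the time course differed in these genes at every time. All 10 lead sites were higher in replicate 2 at each of the 7 times. Counts of 0 in the shallower replicate 1 are among these, and the share of all sites higher at each time is not given here. The sum of the 10 lead sites was 878 RPM in replicate 2 and 194 RPM in replicate 1 at 0 h, a ratio of 4.53. The ratio was 3.56 at 72 h and 12.8 at 18 h. In the fit with the block, in a comparison chosen later, once the data had been seen, 10 of 10 lead sites were higher in replicate 2 (median log2 difference 2.87). Of all sites 9.95% were. TOP2A differed by 3.42 (SE 0.28, adjusted p = 9.52e-08) and CCNB1, the smallest difference, by 1.94 (SE 0.25, adjusted p = 1.69e-05). The replicates also differed in depth at every time, and its part in this difference was not tested. RPM values are scaled to library size.

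MKI67 gave a second measure of the 6 h and 18 h libraries of replicate 2. In these the 4 downstream clusters held 73.7% and 68.3% of the tags of MKI67 (70 of 95 and 41 of 60 tags). In the libraries of replicate 2 at 0, 3 and 12 h they held 22.1%, 27.97% and 20.6%. The lead site had 14.6 and 11.8 RPM at 6 and 18 h of replicate 2, below the 29.2, 33.0 and 21.2 RPM at 0, 3 and 12 h. At 72 h 9 of 14 tags were downstream, and at 48 h 9 of 25. The replicate 1 libraries had at most 7 tags of MKI67 and give no usable share. The downstream clusters lay inside the window of MKI67, and whether they are capped starts or other 5′ ends was not tested.

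In the second experiment the mitosis genes were lower at 24 h than at 6 h in both lines and with every treatment, ethanol included. In BicR cells 10 of 10 lead sites fell, among 11.2% of all 13294 sites that did. In LNCaP cells 7 of 10 fell, among 0.873% of all sites. The median log2 change was -0.72 in BicR cells and -0.73 in LNCaP cells, where the median of all sites was -0.03 and -0.01. The 4 treatments of a line served as the replicates of this comparison. All 10 genes were lower at 24 h in each of the 8 pairs of libraries. Scaled to library totals in place of TMM factors, 9 of 10 lead sites fell in BicR cells, while 80.3% of all calls were higher, against 48.3% with TMM factors.

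CCNA2 had the largest fall in BicR cells. It had 36.0, 19.6, 32.4 and 17.1 RPM at 24 h in BicR cells with ethanol, DHT, bicalutamide, and DHT with bicalutamide, against 49.5, 59.2, 55.4 and 60.3 RPM at 6 h. The 4 libraries at 24 h lay below the 4 at 6 h, at a log2 change of -1.28 (SE 0.19, adjusted p = 0.00216). In LNCaP cells CCNA2 had 24.6, 13.7, 18.0 and 15.7 RPM at 24 h in the same order of treatments, against 31.3, 34.0, 42.8 and 31.1 RPM at 6 h, which is -0.98 (SE 0.20, adjusted p = 0.0418) on the log2 scale. CCNB1 had 209, 133, 208 and 162 RPM at 24 h in BicR cells, against 235, 280.3, 237 and 212 RPM at 6 h, with no overlap and a log2 change of -0.60 (SE 0.12, adjusted p = 0.00703). CCNB2 fell by less than CCNA2 in both lines, with log2 changes of -0.63 (SE 0.10, adjusted p = 0.00274) in BicR cells and -0.69 (SE 0.10, adjusted p = 0.0233) in LNCaP cells.

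UBE2C had 132, 75.1, 108 and 82.0 RPM at 24 h in BicR cells, against 156, 209.5, 173 and 175 RPM at 6 h, and its log2 change was -1.02 (SE 0.15, adjusted p = 0.00235). In LNCaP cells it had 78.7, 54.8, 63.7 and 53.0 RPM at 24 h, against 111, 115, 124 and 116 RPM at 6 h, which is -0.93 (SE 0.16, adjusted p = 0.0299) on the log2 scale. CDC20 fell in both lines, with log2 changes of -0.98 (SE 0.16, adjusted p = 0.00321) in BicR cells and -0.85 (SE 0.17, adjusted p = 0.0418) in LNCaP cells. BIRC5 had the smallest adjusted p of the 10 in both lines, at -0.81 (SE 0.12, adjusted p = 0.00182) in BicR cells and -0.95 (SE 0.12, adjusted p = 0.0147) in LNCaP cells. The second site of BIRC5, 9806 bp downstream, also fell in BicR cells (log2 -1.06, SE 0.30, adjusted p = 0.029, edgeR) and stood at -1.25 (SE 0.34, adjusted p = 0.112) in LNCaP cells.

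The 3 lead sites that did not pass in LNCaP cells were those of MKI67 at -0.75 (SE 0.16, adjusted p = 0.051), AURKA at -0.68 (SE 0.16, adjusted p = 0.068) and PLK1 at -0.64 (SE 0.16, adjusted p = 0.0828). All 3 fell in BicR cells, MKI67 with the third largest change of the 10 lead sites, at -0.99 (SE 0.14, adjusted p = 0.00207). TOP2A had the smallest change in both lines, at -0.55 (SE 0.12, adjusted p = 0.00839) in BicR cells and -0.64 (SE 0.12, adjusted p = 0.0353) in LNCaP cells. The 24 h libraries lay below the 6 h libraries without overlap for 7 of 10 genes in BicR cells (all but TOP2A, BIRC5 and CCNB2), as for 2.84% of all sites. In LNCaP cells this held for 10 of 10 genes and 5.84% of all sites. For the difference between the lines in the change over time, 0 of 10 genes passed, with log2 differences of -0.30 (CCNA2) to 0.14. Of all sites 0% passed in edgeR, and 1399 had an unadjusted p under 0.05, but none of the 10. In LNCaP cells the count of lower lead sites was 0 without the DHT, bicalutamide or combined library of 6 h or of 24 h, when at most 0.0527% of all sites were called lower. It was 4 with library totals in place of TMM factors (0.617% of all sites), 8 without either ethanol library (1.14% each) and 10 with DESeq2 (1.24%).

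In BicR cells the summed level of the 10 lead sites at 24 h was 0.864 times that at 6 h with ethanol, 0.766 with bicalutamide, 0.623 with DHT and bicalutamide, and 0.444 with DHT. In LNCaP cells the same ratios were 0.745, 0.543, 0.571 and 0.529. The median ratio over the 10 genes was 0.510 with bicalutamide and 0.528 with DHT in LNCaP cells. Each ratio compares 1 library with 1 library. In BicR cells the table held 78.6% (ethanol) and 75.6% (bicalutamide) of the totals behind the RPM at 6 h, against 84.6% and 85.7% at 24 h. As a share of the table's own tags, all sites of the 10 genes had 0.122% at 6 h and 0.0981% at 24 h with ethanol. The shares were 0.132% and 0.0887% with bicalutamide, 0.110% and 0.0678% with DHT and bicalutamide, and 0.129% and 0.0584% with DHT.

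**Figure D4:**
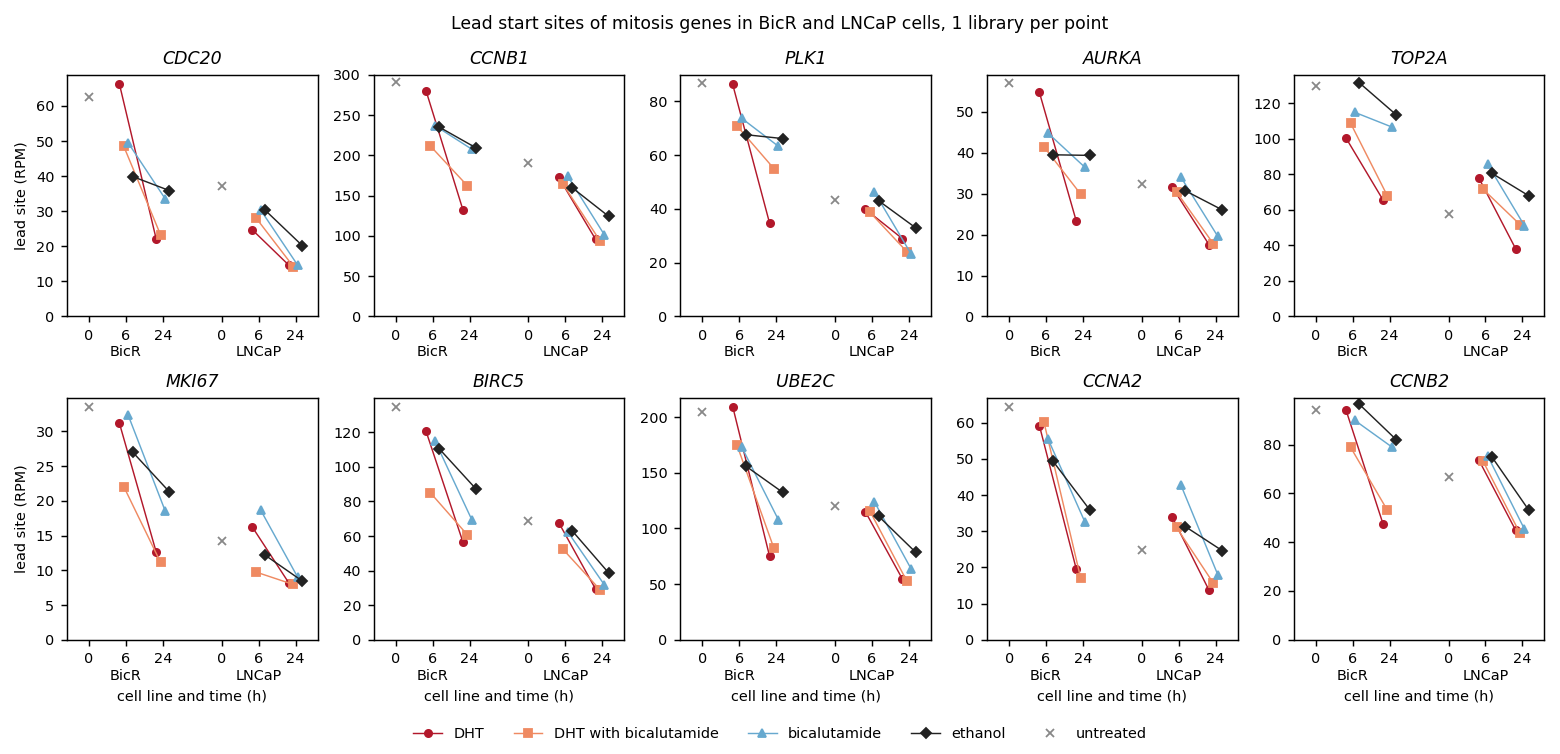
Lead start-site level (RPM) of each mitosis gene in BicR (left) and LNCaP cells (right) at 0, 6 and 24 h, with 1 library per point and lines joining the times of a treatment. In LNCaP cells every 24 h point lies below every 6 h point, and at 6 h all BicR points lie above all LNCaP points.

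BicR cells had higher levels of the mitosis genes than LNCaP cells. With ethanol 3 of 10 lead sites were called higher in BicR cells, those of MKI67, BIRC5 and TOP2A, among 2.51% of all sites, and all 10 differences were positive (median log2 0.75, against 0.00 over all sites). MKI67 had 27.0 and 21.3 RPM in BicR cells with ethanol at 6 and 24 h, against 12.2 and 8.47 RPM in LNCaP cells, a log2 difference of 1.43 (SE 0.24, adjusted p = 0.00878). BIRC5 had 110.4 and 87.1 RPM in BicR cells, against 63.2 and 38.5 RPM in LNCaP cells, a log2 difference of 0.99 (SE 0.19, adjusted p = 0.0138). TOP2A had 131 and 114 RPM in BicR cells, against 80.5 and 67.9 RPM in LNCaP cells, at 0.74 (SE 0.19, adjusted p = 0.0426). The smallest difference was that of AURKA, at 0.53 (SE 0.25, adjusted p = 0.234). Without the 6 h ethanol library of LNCaP cells 0 of the 10 lead sites passed, among 0.0827% of all sites called higher, and the median log2 difference of the 10 was 0.41. Without the 6 h ethanol library of BicR cells the median was 1.23. DESeq2 gave 5 lead sites with all libraries, among 1.81% of all sites. Scaled to library totals, 2 were called higher, with 19.0% of all calls higher, against 46.3% with TMM factors.

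When the lines were compared over the mean of the 4 treatments, 10 of 10 lead sites were higher in BicR cells, among 14% of all sites. PLK1 then differed by a log2 value of 0.93 (SE 0.16, adjusted p = 0.00128) and CDC20 by 0.94 (SE 0.16, adjusted p = 0.00152), whereas CCNB2 had the smallest difference, 0.37 (SE 0.10, adjusted p = 0.0171). At 6 h all 4 BicR libraries lay above all 4 LNCaP libraries for 10 of 10 genes, as for 7.45% of all sites. At 24 h this held for 5 of 10 (CDC20, CCNB1, PLK1, MKI67 and BIRC5), as for 18.7% of all sites. The untreated libraries at 0 h, which were in no fit, had a summed level of 1158 RPM in BicR cells and 655 RPM in LNCaP cells, and all 10 genes were higher in BicR cells by 1.41-fold to 2.59-fold. Each of these 9 pairs of conditions is 1 library per line.

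Over both times together, no lead site was called for androgen or antagonist by edgeR. DHT against ethanol gave 0 of 10 in BicR cells, where 3.38% of all sites passed in either direction, and 0 of 10 in LNCaP cells, where 0.128% did. Bicalutamide against ethanol gave 0 of 10 in both lines (0.196% of all sites in BicR and 0.00752% in LNCaP cells). DHT with bicalutamide against DHT alone gave 0 of 10 in both lines (0.143% of all sites in BicR and 0% in LNCaP cells). At an unadjusted p under 0.05 the lead sites numbered 2 in BicR and 1 in LNCaP cells for DHT, where 2061 and 736 of all sites did so, and 0 for bicalutamide and for the addition of bicalutamide to DHT. DESeq2 gave 0 in each of these comparisons, except 1 (TOP2A) for DHT in BicR cells. The log2 changes with DHT ranged from -0.62 to 0.03 in BicR cells and from -0.38 to 0.26 in LNCaP cells, with standard errors of up to 0.28. TOP2A stood nearest to a call, at -0.62 (SE 0.16, adjusted p = 0.0652) in BicR cells. Tested against each other, the DHT responses of the lines gave 0 of 10, with 0% of all sites called and 0 of the 10 at an unadjusted p under 0.05.

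These averages joined 6 h and 24 h, at which the ratio of DHT to ethanol differed. In BicR cells at 6 h the summed level of the 10 lead sites was 1103 RPM with DHT and 953 RPM with ethanol, with 8 of 10 genes higher with DHT. At 24 h it was 489.8 RPM with DHT and 823 RPM with ethanol, with 10 of 10 genes lower. The ratio of DHT to ethanol at 24 h lay between 0.525 and 0.650 for the 10 genes. CDC20 showed the widest swing, with 66.4 RPM with DHT and 39.9 RPM with ethanol at 6 h, and 22.1 RPM with DHT and 35.9 RPM with ethanol at 24 h. In LNCaP cells the ratio of sums was 1.03 at 6 h (6 of 10 genes higher with DHT) and 0.729 at 24 h (10 of 10 lower). The RPM are scaled to totals of which the table held 86.1% for DHT and 78.6% for ethanol at 6 h in BicR cells, and scaled to the table's own tags, an alternative chosen after the data were seen, 7 of 10 genes were higher with DHT there. The ratio of sums was then 1.06, against 1.16 in RPM. At 24 h it was 0.596 with 10 of 10 lower.

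**Figure D5:**
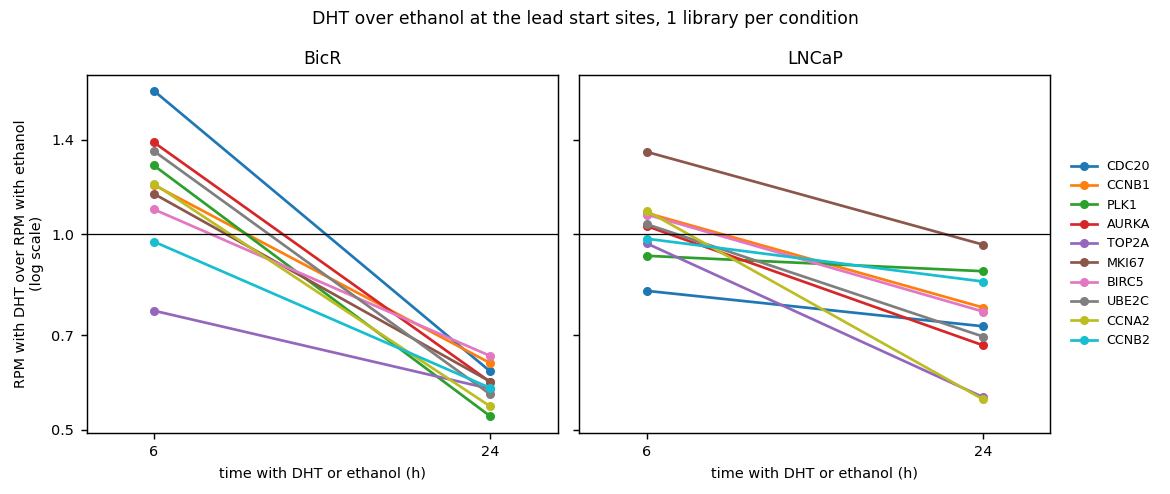
Ratio of the lead start-site level with DHT to that with ethanol (log scale) at 6 and 24 h in BicR (left) and LNCaP cells (right), with 1 line per mitosis gene and 1 library per condition. At 24 h every ratio is below 1 in both lines.

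A further comparison, chosen once the data had been seen, set the 2 libraries with DHT (DHT, and DHT with bicalutamide) against the 2 without DHT (ethanol, and bicalutamide) at each time. At 24 h in BicR cells 3 of 10 lead sites fell with DHT, those of CCNA2, TOP2A and CCNB2, among 0.489% of all sites, and all 10 changes were negative (median log2 -0.56) with an unadjusted p under 0.05, as 1951 of the 13294 sites had. CCNA2 had 19.6 and 17.1 RPM with DHT, alone and with bicalutamide, against 36.0 and 32.4 RPM with ethanol and with bicalutamide alone, a log2 change of -0.85 (SE 0.18, adjusted p = 0.0431). TOP2A had 65.7 and 67.9 RPM with DHT, against 114 and 107 RPM without, at -0.67 (SE 0.14, adjusted p = 0.0453). CCNB2 had 47.6 and 53.1 RPM with DHT, against 82.1 and 79.1 RPM without, at -0.63 (SE 0.10, adjusted p = 0.0155). Leaving out the ethanol, DHT or combined library of 24 h gave 0 lower lead sites, among 0.0376%, 0.00752% and 0.0527% of all sites called lower. Leaving out the bicalutamide library gave 4, among 1.69%.

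In the same comparison at 6 h in BicR cells 0 of 10 passed and 5 of 10 changes were positive (0.0451% of all sites called in either direction). The difference between 24 h and 6 h in this effect gave 0 of 10, with 0.0602% of all sites called and 5 of the 10, and 1948 of all sites, at an unadjusted p under 0.05, so the reversal between the times was not called. In LNCaP cells 0 of 10 passed at 24 h (median log2 -0.26, 10 of 10 negative, 3 with an unadjusted p under 0.05, as had 1147 of all sites), where 0% of all sites were called lower. At 6 h 0 of 10 passed (0% of all sites) and for the difference between the times likewise 0 of 10 (0% of all sites), with 0 and 1 of the 10 at an unadjusted p under 0.05, among 679 and 575 of all sites.

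At 24 h the summed level was 562 RPM with DHT and bicalutamide and 489.8 RPM with DHT in BicR cells, and 351 RPM with DHT and bicalutamide and 346 RPM with DHT in LNCaP cells. In BicR cells 8 of 10 genes were higher with DHT and bicalutamide than with DHT alone, at ratios of up to 1.58 for PLK1. In LNCaP cells 3 of 10 were higher, up to 1.36 for TOP2A, and the lowest ratio was 0.834, for PLK1. With bicalutamide alone the summed level was 755 RPM in BicR cells and 377 RPM in LNCaP cells, against 823 and 475 RPM with ethanol. In LNCaP cells 9 of 10 genes were thus lower with bicalutamide alone than with ethanol at 24 h, MKI67 being the exception (8.99 RPM with bicalutamide and 8.47 RPM with ethanol). Each of these is 1 library against 1 library. The ethanol library is common to the comparisons of DHT and of bicalutamide, which are therefore not independent.

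In BicR cells the summed level was 953 RPM with ethanol at 6 h and 1158 RPM untreated, and in LNCaP cells 637 RPM with ethanol at 6 h and 655 RPM untreated. In BicR cells 8 of 10 genes were lower with ethanol than untreated, at ratios of 0.637 (CDC20) to 0.820 (BIRC5). The table held 78.6% of the total behind the RPM in the BicR library with ethanol at 6 h and 85.5% in the untreated one. In LNCaP cells 7 of 10 were lower, and TOP2A, CCNA2 and CCNB2 stood higher with ethanol, at ratios of 1.401, 1.26 and 1.12. These pairs of single libraries have no replicate check. Over all 18 libraries the summed level ran from 346 RPM (LNCaP cells with DHT at 24 h) to 1158 RPM (untreated BicR cells). The range over libraries was widest for CCNA2, 4.69-fold, and narrowest for CCNB2, 2.21-fold.

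The lead sites varied together. Over the 14 time course libraries the Pearson correlation of log2(RPM + 1) between 2 of the genes was 0.768 to 0.987 (median 0.881, 45 pairs), and over the 18 libraries of the second experiment 0.845 to 0.987 (median 0.920). The libraries of a pair share their depth and their replicate or line, so these values describe the libraries and carry no test. Among 13827 other clusters of the time course with a mean of at least 5 RPM, those most like the mean of the 10 genes lay at chr5:137514729-137514919 on the plus strand (r = 0.980) and chr22:42343083-42343227 on the minus strand (r = 0.973) in hg19. Among 12863 other positions of the second experiment they were base 6960434 of chr12 on the minus strand (r = 0.995) and base 30327125 of chr20 on the plus strand (r = 0.987).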

How the data were processed

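CAGE tags of total RNA, captured by their caps and sequenced on a HeliScope instrument, were deposited as 2 tables, per the labels' protocols. Per the file headers, each table holds raw tag counts per start site and normalised values, which are RPM deposited by the authors, scaled to a library total larger than the table's sum. The build was hg19, per the submitters' processing notes; the aligner and the cluster caller are not given in the sources used here. Start sites in the windows of the 10 genes were taken as members, and the members, lists and motifs were chosen with earlier results of these data known. All members are named in the text. The further mitosis genes and cell type markers planned by name could not be located, because no hg19 annotation was used here.

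Counts were tested per table on all sites with edgeR 4.0.16 (R 4.3.3): TMM factors, filterByExpr with a minimum count of 10, quasi-likelihood F tests and Benjamini-Hochberg adjustment over all tested sites, with a threshold of 0.05. SE is the log2 change divided by the square root of F. Of the member sites 12 of 14 and 11 of 11 passed the filter, and all 10 lead sites did in both tables. The 2 MKI67 sites left out were downstream ones. The model of the second experiment held a term for every treatment within a line plus one for time, so the 6 h and 24 h libraries served as replicates. Its spread thus includes any treatment effect that differs between these times. Comparisons with and without DHT at each time, and of the replicates, were added after the data were seen. In those with and without DHT the spread includes any effect of bicalutamide. Same-numbered time course libraries deviated together: over 12761 sites, 21 of 21 pairs of times had a correlation above 0.1 (0.153 to 0.590, median 0.340). The replicate block is therefore given beside the results it changes. Depth also differed between the replicates at every time, and its part in these correlations was not tested. DESeq2 1.42.0, other scaling, no filter, summed sites and left-out libraries were the alternatives.

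The tables held 128463 to 3837493 tags per library in the time course and 4139807 to 7753336 in the second experiment. For a count of 0 an approximate upper limit of 3 tags was taken, which is not a hard maximum.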

Additional observations from a re-analysis of the deposited data

Results flagged for a closer look

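In BicR cells 8 of the 10 genes were higher with DHT than with ethanol at 6 h and lower at 24 h, each time by 1 library against 1 library. In RPM these ratios rest on totals of which the table held 86.1% for DHT and 78.6% for ethanol at 6 h. Scaled to the table's own tags 7 of the 10 turned in this way, and BIRC5, at a ratio of 1.09 in RPM at 6 h, stood at 0.997. The log2 ratio of DHT to ethanol at 24 h minus that at 6 h was -1.435 for CDC20, -1.283 for PLK1, -1.244 for UBE2C and -1.226 for AURKA. It was -1.139 for CCNA2, -0.961 for MKI67, -0.912 for CCNB1 and -0.750 for BIRC5. In LNCaP cells the direction turned in the same way for 6 genes, with -0.963 for CCNA2, -0.610 for AURKA, -0.575 for UBE2C, -0.496 for BIRC5, -0.484 for CCNB1 and -0.475 for MKI67. The turn of these single pairs of libraries was not tested. The comparison that also used the libraries with bicalutamide called 0 of 10 lead sites for the difference between the times in either line, with edgeR, and 5 of 10 in BicR cells and 1 of 10 in LNCaP cells had an unadjusted p under 0.05.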

How the results depend on the processing

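Across the alternatives in processing 191 counts of called sites stayed within 1.5 times the reported count and 26 did not. Across those added after the data were seen 31 did and 21 did not. Counts of 0 that remained 0 are among those that stayed, so these totals do not measure how stable the called results were. For R1881 at 48 h against 0 h, where 0 were called, the replicate block gave 9, the block without any 6 h or 18 h library 10, and the block with 1 library left out 1 to 9. At 72 h, also 0, the block gave 10, the block without any 6 h or 18 h library 10 and the block with 1 library left out 3 to 10. With no block, dropping the 6 h and 18 h samples of replicate 2 raised this 0 to 1 called site at 72 h, that of BIRC5. Dropping those of both replicates also gave 1. For the late against the early times, with 1 called, no filter gave 2, the block 11, dropping the 6 h and 18 h samples of replicate 2 gave 0, and single left-out libraries gave 0 to 9 without the block and 3 to 12 with it. The log2 change of BIRC5 there ranged from -6.46 to 1.10 with 1 library left out. It turned to 1.10 without the 6 h library of replicate 2 and to 1.17 when its 18 h library was dropped too, and with the block it stood at -0.01 without the 6 h library of replicate 2.

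For 24 h against 6 h, single left-out libraries gave 8 to 11 called sites in BicR cells and 0 to 9 in LNCaP cells, where library totals gave 4. In BicR cells library totals moved the median of all sites to 0.12 and left 9 of 10 lead sites lower. BicR against LNCaP cells with ethanol gave 5 with DESeq2, 0 with no time term, 10 over the mean of the 4 treatments, and 0 to 4 with 1 library left out. Library totals gave 2 higher lead sites there, with a median of all sites of -0.13. DHT against ethanol in BicR cells gave 1 with DESeq2. Scaled to the table's own tags, DHT over ethanol at 6 h in BicR cells had a ratio of sums of 1.06 in place of 1.16. With against without DHT at 24 h in BicR cells gave 0 to 4 with 1 library left out. Among 24 called single sites, 289 refits gave 210 calls with the direction kept, 77 lost calls with the direction kept and the 2 turned values of BIRC5. Except where a left-out library or filter reduced the data, the cause was not tested.

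Depth limits replicate 1 of the time course most, and the second experiment has 1 library per condition. Where leaving out a library left a condition with 1 library, that library was assumed to vary like the other conditions.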
